A study of Mus musculus with 28 samples.

Results

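Fibroblasts in which MyoD alone had been switched on for 8 days were compared with activated satellite cells by their lists of accessible regions. In ATAC-seq a transposase cuts open chromatin and the released fragments are sequenced, so that a called peak marks a stretch of accessible DNA. Peaks of the 28 libraries of the series were joined into 253225 regions wherever they shared 1 bp or more, and 141329 of these were called in at least 1 of the 4 libraries compared. Regions called in both Dox day 8 libraries and in neither activated satellite cell library are named Dox-only, and there were 44551 of them. Regions called in both activated satellite cell libraries and in neither Dox day 8 library are named activated-SC-only, and there were 2065. Together the 2 sets hold 46616 of the 253225 regions.

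Dox day 8 cells (MEF14_Dox+_Day8, 2 libraries) were fibroblasts of E13.5 mouse embryos with the doxycycline-dependent activator Rosa-rtTA, the MyoD transgene Col1a1-tetO-MyoD that it drives, and the Pax7-nGFP reporter, given doxycycline at 2 μg/ml with basic FGF at 10 ng/ml for 8 days, the condition that the labels' protocols give for conversion into myotubes. Activated satellite cells (activated_SCs, 2 libraries) came from adult Pax7-nGFP mice of 10 to 12 weeks. The labels do not say how long or in which medium these cells were activated, whether animals were pooled, or whether the 2 libraries of a group were separate cultures or animals. Both groups carry the Pax7-nGFP reporter. The other 24 libraries, which played no part in choosing the regions, were MEF14 cells at day 0, with doxycycline alone for 4 days (Dox day 4), with the small molecules alone for 8 days (FRG day 8), with both for 2, 4, 6 or 8 days (Dox+FRG), and with both and a GFP label at days 8 and 10, quiescent satellite cells (quiescent_SCs), each with 2 libraries, and 2 groups of a line named MEF10 at day 6 (MyoD+FRG, MN+FRG). FRG was read as forskolin (5 μM), RepSox (5 μM) and the GSK3β inhibitor CHIR99021 (3 μM), and the meaning of MN is not stated. Basic FGF at 10 ng/ml was also given to Dox day 4, FRG day 8 and all Dox+FRG cells. Doxycycline was at 2 μg/ml in each MEF14 group that received it. The word alone thus means doxycycline without FRG, or FRG without doxycycline. Quiescent satellite cells also came from mice of 10 to 12 weeks, and MEF10 cells, like MEF14 cells, from E13.5 embryos. Dox+FRG libraries without a GFP label are called unsorted, although the labels describe no sort.

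MyoD is a basic helix-loop-helix transcription factor that binds E-box motifs together with E proteins, recruits histone acetyltransferases and chromatin remodellers, and can open closed chromatin at muscle genes in fibroblasts. Satellite cells rest beneath the basal lamina of the muscle fibre and depend on Pax7. On injury or in culture they are known to switch on the endogenous MyoD gene and divide before they differentiate or return to rest. Forskolin activates adenylyl cyclase, RepSox inhibits the kinase of the type I TGF-beta receptor, and CHIR99021 releases beta-catenin from degradation by inhibiting GSK3. No gene annotation of the mm9 build was used here, so regions are given by position and the cell type labels were not checked against marker loci.

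The lists of MyoD-alone cells held nearly all regions of activated satellite cells and many more besides. Of the 43464 regions called in both activated satellite cell libraries, 39671 (91.3%) were called in both Dox day 8 libraries, and these made up 41.5% of the 95543 regions called in both Dox day 8 libraries. The Dox-only regions were 31.5% and the activated-SC-only regions 1.46% of the 141329 regions, values that the choice of the regions fixes and that were not tested. Just outside the rule lay 11321 regions called in both Dox day 8 libraries and 1 activated satellite cell library, 33753 called in 1 Dox day 8 library alone, 1728 called in both activated satellite cell libraries and 1 Dox day 8 library, and 6196 called in 1 activated satellite cell library alone. With 2 libraries against 2 an exact permutation p cannot go below 0.333.

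The Dox day 8 lists were longer and their peaks narrower, and the part of either in the counts was not tested. They held 108663 and 130916 peaks, most of them 82 and 88 bp wide, against 49072 and 61400 peaks, most of them 182 and 173 bp wide, in activated satellite cells. Shared regions as a fraction of those listed by either of 2 libraries (the Jaccard index) came to 0.718 between the Dox day 8 libraries, 0.690 between the activated satellite cell libraries, and 0.343 to 0.431 between libraries of different groups. With 49072 peaks drawn at random from each of the 4 lists the order of the sets turned, to 7940 Dox-only and 12697 activated-SC-only regions, and with only the peaks that exceed the modal width of their list there were 13555 and 188. Leaving out a library, so that 1 stands for its group, gave 71021 Dox-only regions without Dox day 8 replicate 1, 3538 activated-SC-only regions without Dox day 8 replicate 2, and 7394 activated-SC-only regions without activated satellite cell replicate 1. Few regions missed a match by a short distance. A Dox day 8 peak of either library lay within 500 bp of 46 activated-SC-only regions (2.23%), at a median distance of 5.63 kb, and an activated satellite cell peak within 500 bp of 61 Dox-only regions (0.137%), at a median of 11.2 kb.

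Most regions that activated satellite cells have and starting fibroblasts lack were open after MyoD alone. Of the 43464 activated satellite cell regions, 12035 (27.7%) were called in neither day 0 library. Dox day 4 libraries called 74.7% and 77.7% of these 12035 regions, and Dox day 8 libraries called 79.1% and 84.8%. FRG day 8 libraries called 27.5% and 26.7% of them, from lists of 134997 and 133267 peaks that were longer than those of Dox day 4 cells (89871 and 97854 peaks). Each library with doxycycline alone thus lay above those with FRG alone, and neither this difference nor the part of list length in it was tested. In unsorted Dox+FRG cells the share was 26.2% ± 7.37 (day 2), 59.5% ± 8.57 (day 4), 63.9% ± 0.323 (day 6) and 60.8% ± 8.33 (day 8) (SD, n = 2 each). Quiescent satellite cells, the state from which the activated cells arise, called 38.8% and 26.3%. Of the 28820 activated satellite cell regions called in both day 0 libraries, 97.3% were called in both Dox day 8 and 94.4% in both FRG day 8 libraries, so the groups lay close together there.

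**Figure D1:**
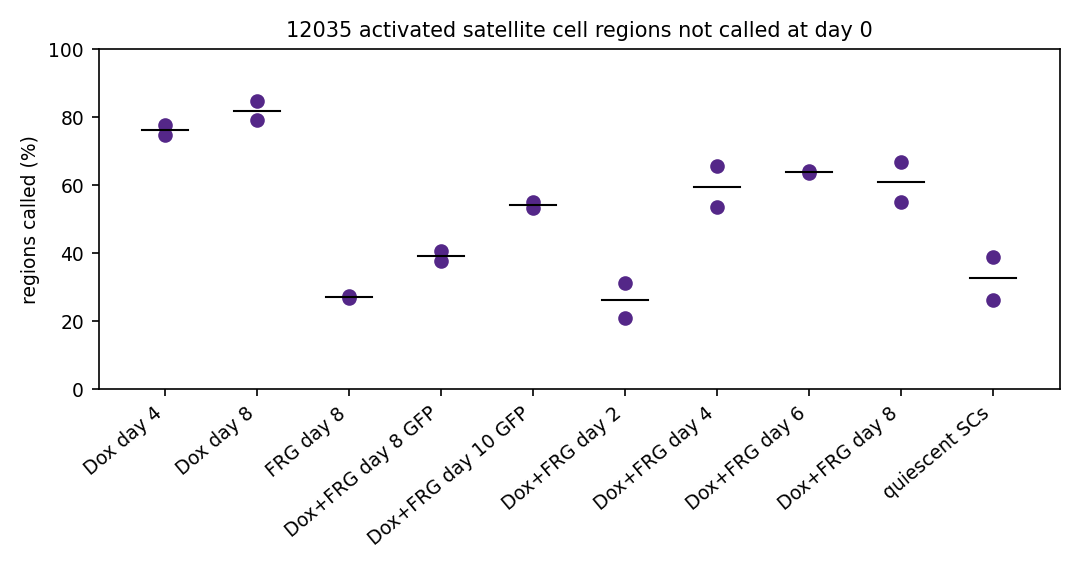
Percent of the 12035 activated satellite cell regions not called at day 0 that each library called (points, 1 per library; lines, mean of the 2 libraries of a group). Dox day 4 libraries sit at 74.7% and 77.7%, FRG day 8 libraries at 27.5% and 26.7%.

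Most Dox-only regions were absent from the lists of starting fibroblasts, less often than all regions but more often than the regions of the 4 libraries. Of the 44551, 28884 (64.8%) were called in neither day 0 library and 11107 (24.9%) in both, against 69.7% and 22.5% of all 253225 regions and 56.0% and 35.7% of the 141329 regions of the 4 libraries. Dox day 4 cells, the earlier stage of the same treatment, called 58.2% and 63.2% of the Dox-only regions, against 33.7% and 36.8% of all 253225 regions. FRG day 8 cells called 47.5% and 47.0% of the Dox-only regions, against 51.5% and 50.9% of all regions. Relative to all regions, Dox-only regions were thus called more often at Dox day 4 (1.73 and 1.72 times the share of all regions) and slightly less often in FRG day 8 cells (0.923 times in both libraries). Quiescent satellite cells called 17.2% and 8.06% of the Dox-only regions, against 22.2% and 14.5% of all regions.

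Dox-only regions fell into groups of different history. The most numerous, 14427 regions or 32.4%, were called in neither day 0 library and in both Dox day 4 libraries, so that they were open by day 4 and still open at day 8. A further 9770 (21.9%) were called in neither day 0 and neither Dox day 4 library and were first listed at day 8. Regions kept from the fibroblast, called in both day 0 and both Dox day 4 libraries, numbered 6300 (14.1%). A smaller group of 2738 regions (6.15%) was called in both day 0 libraries, in neither Dox day 4 library and again at day 8. These classes were not counted over all regions, so their shares are not read as particular to Dox-only regions. For Dox day 4 by itself, 52.1% of Dox-only regions were called in both libraries, against 30.0% of all 253225 regions. In the plot of earlier calls the largest bar is that of regions absent at day 0.

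**Figure D2:**
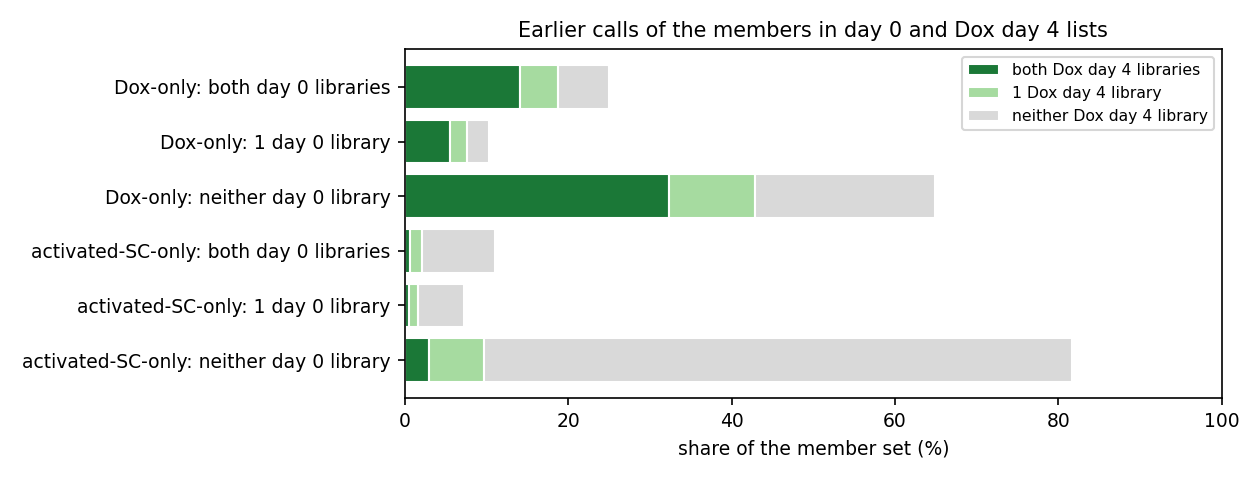
Share of each member set (horizontal axis, %) by the number of day 0 libraries that called a region (rows) and the number of Dox day 4 libraries that called it (colours). Of the Dox-only regions 32.4% were called in neither day 0 and both Dox day 4 libraries, and of the activated-SC-only regions 72.0% in neither of either group.

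Regions open by Dox day 4 (the early group) and those first listed at Dox day 8 (the late group) were next read in other cells. The early group was chosen for calls in both Dox day 4 libraries and the late group for none. Wider sharing of the early group is thus partly set by that choice. Dox day 4 lists were also shorter (89871 and 97854 peaks) than Dox day 8 lists (108663 and 130916), and the part of list length was not tested. Of the 14427 regions open by Dox day 4, unsorted Dox+FRG cells called 8.66% ± 4.06 (day 2), 30.5% ± 11.7 (day 4), 44.3% ± 0.137 (day 6) and 36.8% ± 13.8 (day 8; SD, n = 2 each). FRG day 8 cells called 23.6% and 23.3% of them, and quiescent satellite cells 9.85% and 4.08%. Of the 9770 regions first listed at Dox day 8, unsorted Dox+FRG cells called 4.55% ± 1.99 (day 2), 4.92% ± 2.79 (day 4), 5.10% ± 0.188 (day 6) and 4.45% ± 2.11 (day 8), while FRG day 8 cells called 28.5% ± 0.709. Of all 253225 regions, unsorted Dox+FRG libraries called a mean of 20.2%, 23.3%, 24.7% and 22.4% at days 2, 4, 6 and 8, and FRG day 8 libraries 51.2%. In Dox+FRG cells the early group thus lay below the share of all regions at day 2 and above it from day 4 on, and the late group lay below it on each day. In FRG day 8 cells both groups lay below it. Neither was tested.

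Fibroblast regions among the Dox-only set were called less with MyoD and small molecules together than with small molecules alone. Of the 11107 Dox-only regions called in both day 0 libraries, 88.7% and 88.3% were called in FRG day 8 cells, against 63.9% and 68.2% in Dox day 4 cells. Unsorted Dox+FRG cells called 50.7% ± 10.5 (day 2), 47.6% ± 17.0 (day 4), 43.7% ± 0.700 (day 6) and 34.6% ± 9.66 (day 8; SD, n = 2 each). GFP-labelled cells called 26.0% and 22.0% at day 8 and 38.7% and 40.3% at day 10. Of all 253225 regions, FRG day 8 libraries called a mean of 51.2% and Dox day 4 libraries 35.2%. Unsorted Dox+FRG libraries called 20.2%, 23.3%, 24.7% and 22.4% at days 2, 4, 6 and 8, and GFP libraries 17.4% and 24.2% at days 8 and 10. The 11107 regions thus lay above the share of all regions in each of these groups, and their lower shares with Dox+FRG are not read as a loss particular to them. The lists of the Dox+FRG groups held fewer peaks (43467 to 70877) than those of FRG day 8 cells, and the part of list length in these shares was not tested.

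The number of other libraries that called a region differed between the sets. A Dox-only region was called in a median of 6 and an activated-SC-only region in a median of 2 of the 24 other libraries, against 8 for the 141329 regions of the 4 libraries and 3 for all 253225 regions. In all, 5394 Dox-only regions (12.1%) were called in no other library, against 15.2% of the 141329 regions. A further count, 9503 (21.3%), were called in none but Dox day 4 and day 8 libraries, a share not counted over all regions. Of these 9503, 2606 (27.4%) were called in both Dox day 4 libraries. At the other end, 166 Dox-only regions (0.373%) were called in every library but the 2 of activated satellite cells. All 24 other libraries called 10.3% of the 141329 regions and 5.76% of all 253225 regions.

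**Figure D3:**
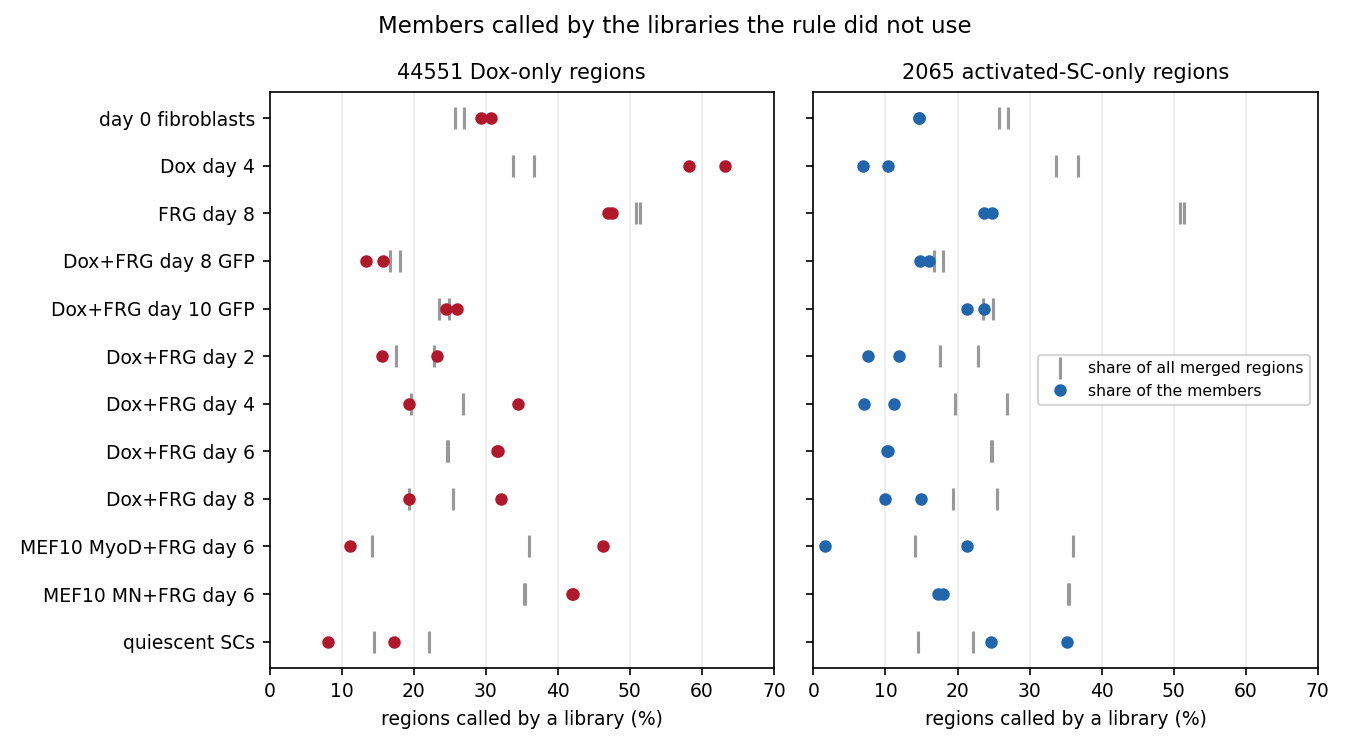
Percent of the 44551 Dox-only regions (left) and of the 2065 activated-SC-only regions (right) called by each library of the 12 groups that the rule did not use (coloured points, 1 per library), with the percent of all 253225 regions called by the same library (grey ticks). Dox day 4 libraries lie above their grey ticks for Dox-only regions, and only quiescent satellite cell libraries lie above theirs for activated-SC-only regions.

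Activated-SC-only regions were the part of the activated satellite cell lists that neither Dox day 8 library held, and 82 of them were called in both Dox day 4 libraries. Quiescent satellite cells called 35.3% and 24.7% of the 2065 regions, against 22.2% and 14.5% of all regions, and they were the only group of which each library called these regions more often than all regions. Dox day 4 cells called 6.92% and 10.4%, against 33.7% and 36.8% of all regions, and 1790 of the 2065 (86.7%) were called in neither Dox day 4 library. Dox day 4 was not used by the rule, but it is an earlier stage of the treatment whose day 8 lists were. The low share there thus follows in part from the choice of regions and is not separate support. FRG day 8 cells called 24.8% and 23.6%, against 51.5% and 50.9% of all regions. Day 0 fibroblasts called 14.7% and 14.6%, against a mean of 26.4% of all regions.

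By their calls in quiescent cells the activated-SC-only regions were divided into regions kept through activation, regions gained on it, and a remainder. Kept regions, called in both quiescent libraries, numbered 497 (24.1%, against 14.2% of all 253225 regions). Gained regions, called in neither, numbered 1324 (64.1%), and the remaining 244 (11.8%) were called in 1 quiescent library. The name gained rests on absence from quiescent lists of 57859 and 37910 peaks, and the part of list length was not tested. Kept regions were chosen for calls in both quiescent libraries and gained regions for calls in neither. Wider calling of kept regions in other lists is thus partly set by that choice. Cells labelled GFP at day 8 called 39.8% and 38.4% of the 497 kept regions and 6.57% and 5.66% of the 1324 gained regions. At day 10 the GFP-labelled cells called 50.3% and 54.9% of the kept and 8.69% and 10.3% of the gained regions. All regions were called at 18.0% and 16.8% in day 8 and 23.5% and 24.9% in day 10 GFP libraries, so kept regions lay above and gained regions below that share in each of the 4. Unsorted Dox+FRG cells called of the kept regions 11.3% ± 4.84 (day 2), 10.3% ± 3.98 (day 4), 14.4% ± 0.711 (day 6) and 22.9% ± 4.27 (day 8; SD, n = 2 each), and of the gained regions 9.14% ± 2.46, 8.72% ± 2.30, 8.46% ± 0.320 and 8.01% ± 3.10 at the same days. At day 8 both unsorted libraries thus also called kept regions more often than gained ones, 26.0% and 19.9% against 10.2% and 5.82%. FRG day 8 cells called 33.2% and 30.6% of the kept and 21.1% and 20.2% of the gained regions, both below their mean of 51.2% for all regions. Dox day 4 cells called 5.63% and 7.65% of the kept and 7.85% and 12.0% of the gained regions. This division was made after the lists had been seen and was not tested.

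Of the 388 activated-SC-only regions called in both day 10 GFP libraries, 233 (60.1%) were called in both quiescent satellite cell libraries, against 24.1% of all 2065. The 388 were chosen for calls in both day 10 GFP libraries, so wider calling in other lists is partly set by that choice. The matching share over all regions called in both day 10 GFP libraries was not counted, so the 60.1% is not read as particular to the 388. The share called in neither day 0 library was 82.7% of the 388 and 81.7% of the 2065. The 388 were 18.8% of the 2065 regions, below the 21.3% of all 253225 regions that both day 10 GFP libraries called. Their number is therefore not read as a particular sharing between GFP-labelled cells and activated satellite cells. Among all 2065 activated-SC-only regions, 536 (26.0%) were called in no other library, against 15.2% of the 141329 regions of the 4 libraries. No fibroblast-derived library called 704 (34.1%) of the 2065, a share not counted over all regions.

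Of the same 2065 activated-SC-only regions, 228 were already open in fibroblasts, called in both day 0 libraries. That share lay below the 22.5% of all 253225 regions called in both day 0 libraries. The 228 regions are not apart from the kept, gained and remaining regions, which together make up the 2065. Absence of the 228 regions from both Dox day 8 lists is set by the rule. Dox day 4 cells called 11.4% and 12.3% of these, and 186 of the 228 were called in neither Dox day 4 library. Unsorted Dox+FRG cells called 36.6% ± 7.75 (day 2), 15.8% ± 7.44 (day 4), 12.1% ± 0.310 (day 6) and 9.43% ± 0.310 (day 8; SD, n = 2 each). FRG day 8 cells, which had no doxycycline, called 70.2% and 68.9%. Dox day 8 aside, the regions were thus listed less often in each group given doxycycline for 4 days or more than in FRG day 8 cells, a difference that was not tested and in which list length also differs. Low calls at Dox day 4 follow in part from the choice of regions. Of all 253225 regions, FRG day 8 libraries called a mean of 51.2%, Dox day 4 libraries 35.2%, and unsorted Dox+FRG libraries 20.2%, 23.3%, 24.7% and 22.4% at days 2, 4, 6 and 8. The 228 regions lay above these shares in FRG day 8 and Dox+FRG day 2 cells and below them in the others.

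GFP-labelled Dox+FRG cells called activated-SC-only regions more often than unsorted Dox+FRG cells. The 4 GFP libraries called 16.1% and 14.8% at day 8 and 21.3% and 23.7% at day 10, and the 8 unsorted libraries of days 2 to 8 called 7.07% to 15.0% with a median of 10.3%. Each of these libraries called activated-SC-only regions less often than all 253225 regions. Relative to its share of all regions the value was 0.881 to 0.953 in GFP and 0.360 to 0.586 in unsorted libraries. The difference was 8.57 percentage points (exact permutation test over libraries, two-sided, p = 0.00404, adjusted p = 0.00606 over 3 tests). All but 1 of the GFP libraries lay above all unsorted ones, day 8 GFP replicate 2 at 14.8% being below unsorted day 8 replicate 1 at 15.0%. With lists drawn to 37301 peaks in every library, which also redraws the regions (5388 Dox-only and 10081 activated-SC-only), the difference was -1.28 points (exact permutation test, adjusted p = 0.598).

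Dox-only regions did not separate the same libraries. GFP libraries called 15.7% and 13.4% at day 8 and 24.4% and 26.1% at day 10, against 15.6% to 34.5% with a median of 27.4% in unsorted libraries. The difference of -6.01 points did not pass (exact permutation test, p = 0.180, adjusted p = 0.180), and the ranges overlapped. The log2 ratio of the activated-SC-only to the Dox-only share was 0.03 and 0.14 in day 8 GFP and -0.20 and -0.13 in day 10 GFP libraries, against -1.63 to -0.97 with a median of -1.28 in unsorted libraries. It was -0.04 ± 0.15 (SD, n = 4) in GFP and -1.30 ± 0.31 (SD, n = 8) in unsorted libraries, a difference of 1.26 (exact permutation test, p = 0.00202, the smallest that 4 against 8 libraries can give, adjusted p = 0.00606). Every GFP library lay above every unsorted one, at day 8 alone too, where the unsorted libraries had -1.10 and -0.97. With all lists drawn to 37301 peaks the difference was 0.17 (exact permutation test, adjusted p = 0.342). The part of list length in the ratio was not tested. Libraries of the same group entered the test singly, and the days differ between the sides. For comparison, the log2 ratio was 1.33 ± 0.41 in quiescent satellite cells and -2.84 ± 0.33 in Dox day 4 cells (SD, n = 2 each).

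**Figure D4:**
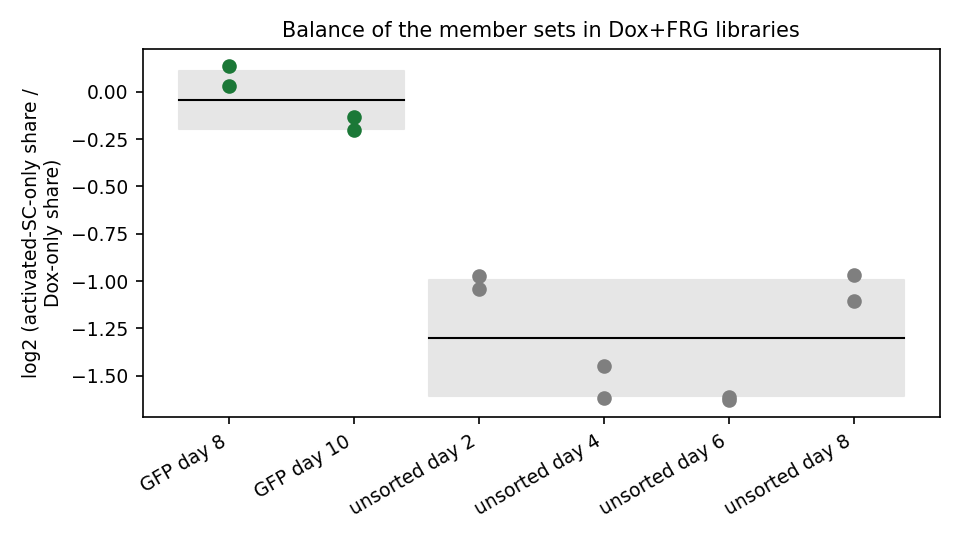
Log2 ratio of the share of activated-SC-only regions to the share of Dox-only regions called by each Dox+FRG library (points), with the mean (line) and SD (band) of the 4 GFP and the 8 unsorted libraries. GFP libraries sit between -0.20 and 0.14, unsorted libraries between -1.63 and -0.97.

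Regions of both sets were spread over the genome and mostly stood singly. By chromosome, Dox-only regions were 26.8% (X) to 34.1% (13) and activated-SC-only regions 1.09% (9) to 1.80% (14) of the regions called in the 4 libraries. Neighbouring regions were read as runs, a run being unbroken by any other region of the 4 libraries. Dox-only regions formed 29121 runs, 19352 of them (66.5%) of a single region and 480 of 5 or more, and the longest held 11. Activated-SC-only regions formed 1978 runs, 1898 of them (96.0%) of a single region, and the longest held 3. A more numerous set makes longer runs by its number alone, so the difference is not read as one between the kinds of region. Distance to the nearest of the 14059 regions called in all 28 libraries was alike, with a median of 49.1 kb for Dox-only, 55.7 kb for activated-SC-only, and 42.0 kb for regions called in all 4 libraries compared but not in all 28.

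Among windows of 100 kb (9465 with at least 5 regions that 1 of the groups compared had in both its libraries), the one with most Dox-only regions lay on chromosome 6 from 53900001 to 54000000 in mm9, where all 13 such regions were Dox-only. Activated satellite cells called none of the regions in it. Dox day 4 cells called 8 and 10 of the 13, FRG day 8 cells 8 and 8, quiescent satellite cells 5 and 1, and day 0 fibroblasts 3 and 2. The window on chromosome 19 from 16200001 to 16300000 held 13 Dox-only regions of 15, of which Dox day 4 cells called 6 and 7 and day 0 fibroblasts 3 and 3. The windows on chromosome 7 from 142800001 to 142900000 and on chromosome 10 from 18100001 to 18200000 held 12 Dox-only regions of 14 each. Day 0 fibroblasts called 4 and 5 of the 12 on chromosome 7 and 8 and 5 of the 12 on chromosome 10.

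The window on chromosome 1 from 133300001 to 133400000 differed from these in its history. It held 12 Dox-only regions of 16, and day 0 fibroblasts, Dox+FRG day 2 cells and quiescent satellite cells called none of the 12 in either library. Dox day 4 cells called 9 and 9 of the 12, unsorted Dox+FRG cells 7 and 6 at day 4, 6 and 7 at day 6 and 6 and 5 at day 8, and FRG day 8 cells 2 and 2. GFP-labelled cells called 0 and 0 at day 8 and 1 and 1 at day 10. These regions were thus listed mainly in cells with MyoD and without the GFP label. The longest runs of Dox-only regions, of 11 each, lay on chromosome 7 from 142808294 to 142876266, inside the window named above, and on chromosome 14 from 59590900 to 59686030. Of the 11 on chromosome 14, Dox day 4 cells called 9 and 9, day 0 fibroblasts 3 and 2, FRG day 8 cells 2 and 2, and quiescent satellite cells 0 and 0. Runs of 10 lay on chromosome 10 from 18153225 to 18191705, chromosome 11 from 42463634 to 42847137 and chromosome 12 from 28662174 to 28831737.

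The window with most activated-SC-only regions lay on chromosome 7 from 138200001 to 138300000, with 4 activated-SC-only and 1 Dox-only region of 6. Its 4 activated-SC-only peaks were evenly spaced, 8.34, 7.84 and 8.33 kb apart, and none was listed in Dox day 4, FRG day 8 or day 0 cells. Dox day 8 replicate 2 had peaks at 3.52, 11.9 and 19.7 kb from the window's start. Activated satellite cell replicate 1 had them at 1.64, 9.95 and 17.8 kb, so such spacing is not particular to activated satellite cells. Quiescent satellite cells called 1 and 0 of the 4, and day 10 GFP cells 0 and 1. The 13 Dox-only regions of the window on chromosome 6 were 1.82 to 16.4 kb apart. The other leading windows held 3 each, on chromosome 12 from 104400001 to 104500000 (of 5 regions), chromosome 5 from 37800001 to 37900000 (of 6), chromosome 1 from 78800001 to 78900000 (of 7) and chromosome 5 from 120600001 to 120700000 (of 7). In all, 14 windows held 3 or more activated-SC-only regions, against 6193 for Dox-only regions.

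**Figure D5:**
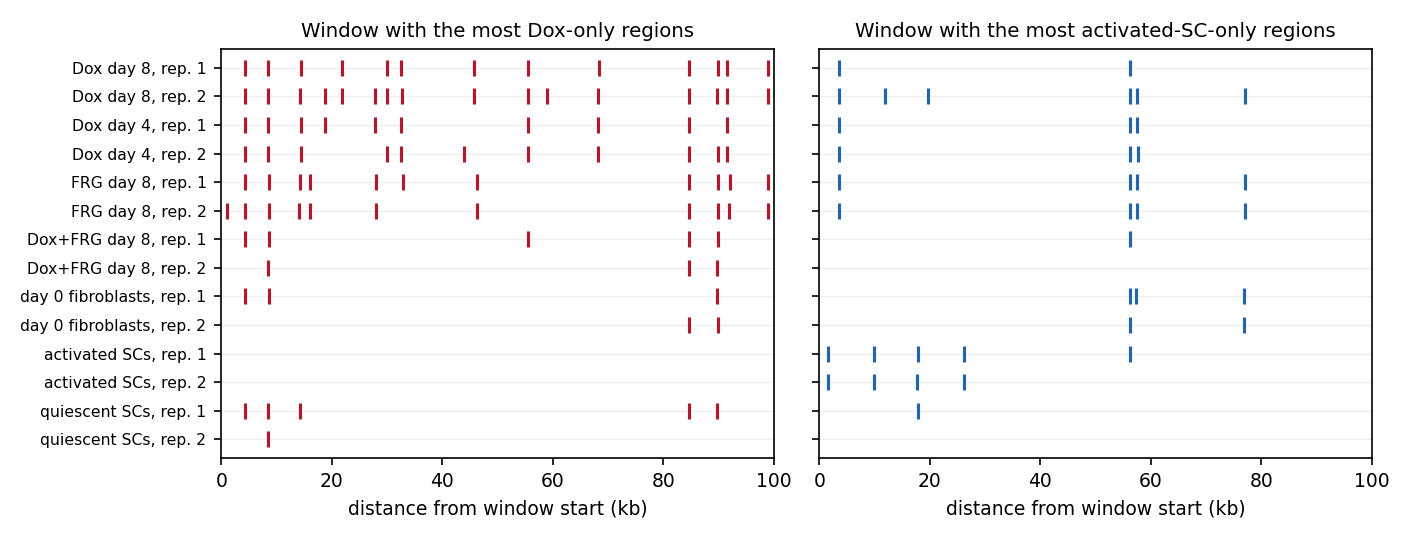
Peaks called per library (ticks at the peaks' middles) over the 100 kb window with most Dox-only regions (left) and that with most activated-SC-only regions (right), as distance from the window's start. Activated satellite cells have no peak in the left window, and 4 peaks of both their libraries in the right one stand where no Dox day 8 library has one.

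Runs of 3 activated-SC-only regions showed contrasting histories. In the run on chromosome 5 from 37834125 to 37852555 quiescent satellite cells, Dox day 4 cells and GFP-labelled cells called none of the 3 in any library, and day 0 fibroblasts 0 and 1. In the run on chromosome 4 from 146134650 to 146209941 quiescent satellite cells called 2 and 2, GFP-labelled cells 3 and 2 at day 8 and 2 and 3 at day 10, and unsorted Dox+FRG cells 2 and 2 at day 8, while Dox day 4 and FRG day 8 cells called 0 in each library. In the run on chromosome 5 from 90494961 to 90508564 day 0 fibroblasts called 2 and 2 and Dox+FRG cells of days 4, 6 and 8 without a GFP label 0. The remaining runs of 3 lay on chromosome 1 from 78856657 to 78863425 and chromosome 3 from 149368350 to 149395426.

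Peaks of the members were narrower than those of regions called in all 4 libraries. Peaks exceeding the modal width of their list made up 9.56% and 14.1% of the Dox-only regions in the Dox day 8 libraries, against 40.2% and 41.6% of the regions called in all 4. In the activated satellite cell libraries they made up 1.84% and 3.97% of the activated-SC-only regions, against 8.95% and 11.5%. Both peaks were wider for 3086 Dox-only (6.93%) and 19 activated-SC-only regions. The widest Dox-only region, on chromosome 4 from 57251147 to 57254071, had peaks of 2910 and 2916 bp, was called in neither day 0, Dox+FRG day 2, FRG day 8 nor quiescent satellite cell list, and was called in both libraries of Dox day 4 and of unsorted Dox+FRG cells at days 4, 6 and 8. The next, on chromosome 15 from 40785354 to 40787667, had peaks of 2299 and 2310 bp and was called in both libraries of day 0 fibroblasts, Dox day 4 cells and quiescent satellite cells. The third, on chromosome 2 from 132423107 to 132426037 with peaks of 1952 and 2931 bp, was called in 18 of the 24 other libraries, all but the 2 each of day 0, Dox day 4 and day 8 GFP cells. Others lay on chromosome 9 from 97054674 to 97056745 and chromosome 1 from 67689380 to 67691448, called in 12 and 13 of the 24 other libraries.

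The widest activated-SC-only region lay on chromosome 8 from 73671453 to 73672766, with peaks of 1288 and 1314 bp, and was called in 4 of the 24 other libraries, no quiescent satellite cell list among them. The next lay on chromosome 12 from 4799630 to 4800874, with peaks of 1236 and 1227 bp, and was called in both libraries of day 0 fibroblasts and of day 10 GFP cells and in no Dox day 4 list. Those on chromosome 19 from 56428156 to 56429400, chromosome 16 from 77594101 to 77595089 and chromosome 9 from 123568222 to 123569297 were called in 4, 7 and 2 other libraries.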

How the data were processed

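Accessible regions of 28 mouse libraries in 14 groups of 2 were compared. The deposited files give only positions of peaks, 1 file a library, without heights, scores or reads. The authors used BWA and HOMER with mm9, per the submitters' processing notes. Tool versions, the peak threshold, filters on reads and any transposase shift were not given in the sources used here. Depth is unknown from the lists, so no counting interval is given. Reactions took 60000 cells and libraries 13 PCR cycles, per the labels' protocols. Positions are printed counted from 1.

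A merged region counted as called by a library with a peak in it (1 bp or more). Shares were computed with Python 3.11.15, numpy 2.4.6 and pandas 2.3.3. The 3 tests of GFP against unsorted libraries were exact permutation tests, two-sided, adjusted after Benjamini and Hochberg, with a threshold of 0.05. The counting and the test were tested on simulated data. The sites named are, for each direction, the 5 windows of 100 kb with most members, the 5 longest runs and the 5 members whose narrower peak is widest relative to its list. Regions, lists and tests were chosen with earlier results of these data known. Planned gene and marker counts were not made, for want of an mm9 annotation, and no sequence is shown for want of an mm9 genome.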

Additional observations from a re-analysis of the deposited data

How the results depend on the processing

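The counts kept within 1.5 times with an overlap of 50% of the shorter peak, peaks resized to 500 bp, autosomes alone, and regions merged from the 4 libraries, from 27 libraries or with support in another library, the last 2 settings added after the data were seen. They moved with equal list lengths (7940 Dox-only and 12697 activated-SC-only regions) and with extended peaks (13555 and 188). Drawing removes more of a longer list. Without 1 library each, counts ran from 47044 to 71021 Dox-only and from 2320 to 7394 activated-SC-only regions. With every list drawn to 37301 peaks, the activated-SC-only share in GFP minus unsorted libraries was -1.28 points and the log2 ratio difference 0.17 (exact permutation tests, adjusted p = 0.598 and 0.342), and the cause was not tested. With only the 12 tested lists drawn to 43467 peaks and the regions kept, an alternative added later, they were 7.58 points and 1.24 (exact permutation tests, adjusted p = 0.00303 each). Permuting within replicate numbers as a block gave adjusted p = 0.169 for the Dox-only share (-6.01 points) and 0.00667 for the activated-SC-only share (8.57 points) and the log2 ratio (1.26), by exact permutation tests. The numbers are not known to pair libraries: over 15 pairs of Dox+FRG groups, same-numbered libraries had deviations that correlated at -0.0065 to 0.109, 1 above 0.1. Leaving out each of the 12 libraries changed no call, with ranges of -8.06 to -3.85 points, 6.98 to 9.97 points and 1.20 to 1.31. With peaks resized, 17 of 24 group shares moved by less than the SD of their libraries and 7 by more.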

Other observations

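The MEF10 lists read the member sets unevenly. MEF10 MyoD+FRG replicate 1 (37301 peaks) called 11.2% of Dox-only regions and replicate 2 (91401 peaks) 46.3%, and for activated-SC-only regions the group had 11.5% ± 13.9 (SD, n = 2), so the libraries of that group do not give 1 value. The MEF10 MN+FRG libraries called 42.0% and 42.1% of Dox-only and 17.3% and 18.0% of activated-SC-only regions. Of the 228 activated-SC-only regions called in both day 0 libraries, MEF10 MN+FRG libraries called 50.4% and 51.8%, against 12.3% and 11.8% in unsorted Dox+FRG day 6 cells. Of the 11107 Dox-only regions called in both day 0 libraries they called 80.7% and 80.9%, against 43.2% and 44.2%. These differences were not tested, and the MEF10 MN+FRG lists held more peaks (93086 and 93730) than those of Dox+FRG day 6 cells (64823 and 65516).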
